A study of Mus musculus with 5 samples.

Results

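The RNA of 35 rod and cone photoreceptor genes was followed in 5 pools of mouse iridocorneal angle, the ring of tissue between iris and cornea through which aqueous humor leaves the eye. The genes were taken by symbol from the 56941 identifiers of the deposited count table as a list of phototransduction, outer segment and photoreceptor transcription factor genes. The rule that picks them uses no measured value of these pools. By their known use in the retina, 10 of the 35 were assigned to rods, 10 to cones and 15 to both. All 35 were present and all passed the minimum of 10 counts in at least 1 pool. Guca1a and Pde6c reached it only in Gpnmb+ pools, so a difference in that direction was favoured for these 2 genes.

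The comparison was between DBA/2J mice, an inbred strain with a nonsense allele of Gpnmb that develops pigmentary glaucoma, and Gpnmb+ mice (DBA/2J-Gpnmb+/SjJ), the same strain with a functional Gpnmb. Both groups carry the Tyrp1 b allele, so the controls are not wild type for pigment. By the labels all mice were 12 months old, untreated and of both sexes, while the methods allow up to a month more, and there were 3 DBA/2J pools and 2 Gpnmb+ pools. Every pool was described as 3 mice, but the library names joined 3 identifiers in DBA/2J and 2 in Gpnmb+. The neural retina was not a target of the dissection, since the posterior eye was cut away. Iris and ciliary body were then removed, though by the methods remnants of both stayed on the dissected ring. In whole tissue such as this, fewer cells of a type and less RNA per cell cannot be told apart.

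Photoreceptors turn light into a change of membrane voltage. An opsin that has caught a photon activates transducin, a G protein, which switches on a phosphodiesterase that breaks down cyclic GMP, and cyclic nucleotide-gated channels in the outer segment then close. Rods serve dim light and cones serve daylight and color, and each uses its own set of these proteins, while arrestins, kinases and calcium sensors end the response and guanylate cyclases restore cyclic GMP. In mouse retina rods far outnumber cones. The transcription factor Crx acts in both cell types, and Nrl and its target Nr2e3 direct cells to the rod fate.

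To show the regulatory sequence of genes that did and did not move together, the 250 bases before the annotated start are printed for 4 members, from RefSeq on mouse build GRCm38.p6, an earlier build than the one the counts were made on. Sag and Cngb1 stand for the rod genes, Gnat2 for the cone genes, and Gucy2f for the members whose genotypes did not overlap. Capitals mark TAATCC or its reverse complement GGATTA, the core letters bound by Crx, and TGCTGA or its reverse complement TCAGCA, the core letters of an Nrl site, searched on both strands with no overlap between the 2 motifs. Each window is given on the strand of its gene.
Sag, chr1:87803430-87803679, plus strand: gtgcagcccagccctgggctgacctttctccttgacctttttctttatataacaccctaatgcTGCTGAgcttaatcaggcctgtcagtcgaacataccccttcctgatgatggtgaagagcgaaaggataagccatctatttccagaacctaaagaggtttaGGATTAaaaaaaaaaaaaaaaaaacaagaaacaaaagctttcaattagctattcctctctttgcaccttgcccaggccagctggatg
Cngb1, chr8:95306586-95306835, minus strand: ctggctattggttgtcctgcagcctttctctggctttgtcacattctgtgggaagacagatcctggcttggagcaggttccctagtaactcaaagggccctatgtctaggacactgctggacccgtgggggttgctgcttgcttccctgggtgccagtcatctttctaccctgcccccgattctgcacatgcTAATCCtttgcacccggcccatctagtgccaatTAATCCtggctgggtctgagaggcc
Gnat2, chr3:108092816-108093065, plus strand: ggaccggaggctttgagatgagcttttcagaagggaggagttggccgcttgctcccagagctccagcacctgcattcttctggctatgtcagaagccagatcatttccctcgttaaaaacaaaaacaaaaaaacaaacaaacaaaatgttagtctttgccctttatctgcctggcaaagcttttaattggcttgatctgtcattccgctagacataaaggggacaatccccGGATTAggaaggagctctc
Gucy2f, chrX:142196937-142197186, minus strand: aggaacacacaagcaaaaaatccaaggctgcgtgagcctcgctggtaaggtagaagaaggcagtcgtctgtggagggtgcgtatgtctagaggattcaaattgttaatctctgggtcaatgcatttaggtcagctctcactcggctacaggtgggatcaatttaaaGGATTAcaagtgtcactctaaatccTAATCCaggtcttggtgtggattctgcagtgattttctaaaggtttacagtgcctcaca

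RefSeq windows were at hand for 24 of the 35 genes, in 27 windows. The letters TAATCC or GGATTA occurred in 11 of the 27, or 40.7%, against 6.25% of all 32851 windows of the same length. They were found in the rod genes Sag, Cngb1, Cnga1 and Gngt1, in the cone gene Gnat2, and in Abca4, Crx, Guca1a, Gucy2e, Gucy2f and Unc119. TGCTGA or TCAGCA occurred in 4 of the 27, or 14.8%, against 16.1% of all windows. These are letter matches only. The Crx letters occurred in genes with the pattern of the rod genes described further on, as in Sag and Cngb1. They also occurred in Abca4, Gnat2, Gucy2e and Gucy2f, which did not share that pattern. Whether the letters go with the behavior of the genes across pools was not tested.

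The libraries held 43900661 to 49837758 counts on genes, and levels are given as CPM, counts scaled to library size. Gpnmb itself had 1946 to 2234 counts in DBA/2J against 110568 and 129659 in Gpnmb+, so the libraries matched their labels. Myoc, a marker of trabecular meshwork, had 7106, 13989 and 9514 counts in DBA/2J against 22068 and 26147 in Gpnmb+, present in every pool and lower in each DBA/2J pool (adjusted p = 0.165 by edgeR). Krt12, a keratin of corneal epithelium, had 11298, 4970 and 421 counts in DBA/2J against 86337 and 27106 in Gpnmb+, a wide spread within both genotypes. The 2 Gpnmb+ pools held no more than 4 counts of the Y-linked gene Ddx3y and the DBA/2J pools 1567 to 4168. Xist, the RNA of the inactive X chromosome, had 596, 0 and 2417 counts in DBA/2J against 7843 and 9152 in Gpnmb+. These counts go against the label of both sexes in the Gpnmb+ pools, where RNA of males was near 0, and in DBA/2J pool 2, where RNA of females was not detected. Sex composition and genotype cannot be told apart.

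Rod genes were the most uniform members. In 10 of 10 rod genes the level was highest in Gpnmb+ pool 2, lowest in Gpnmb+ pool 1 and intermediate in all 3 DBA/2J pools. Over all tested genes, 26.9% were highest in Gpnmb+ pool 2 and 18.1% were lowest in Gpnmb+ pool 1. The widest distance among the 5 pools was therefore between the 2 pools of the same genotype, which differed by 4.85- to 6.81-fold in the 10 rod genes.

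Gnat1, which encodes the alpha subunit of rod transducin, was counted 5629, 7691 and 5445 times in DBA/2J pools 1 to 3 against 3991 and 20326 in Gpnmb+ pools 1 and 2. The genotypes overlapped, with one Gpnmb+ pool below and the other above every DBA/2J pool. Its mean level was 143 ± 31.7 CPM (SD, n = 3) in DBA/2J and 247 ± 238 CPM (SD, n = 2) in Gpnmb+, so that the spread between the Gpnmb+ pools was about as large as their mean. Gngt1, the transducin gamma subunit that partners Gnat1, had 798, 960 and 829 counts in DBA/2J against 624 and 3795 in Gpnmb+. It followed the same order, and its 6.31-fold distance between the Gpnmb+ pools was the second widest of the rod genes.

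Sag, the rod arrestin that binds activated visual pigment and stops signaling, had 3433, 3963 and 2986 counts in DBA/2J against 1863 and 12233 in Gpnmb+. Its distance between the Gpnmb+ pools was 6.81-fold, the widest of the 10 rod genes. The phosphodiesterase subunits kept the same order. Pde6a, a catalytic subunit, had 1684, 2188 and 1434 counts in DBA/2J against 1139 and 5614 in Gpnmb+. Pde6b, the other catalytic subunit, had 900, 1243 and 808 counts and 557 and 2901. Pde6g, the inhibitory subunit, had 615, 804 and 630 counts and 394 and 2166. All 3 subunits overlapped between genotypes, with Gpnmb+ pool 2 set apart from the other 4 pools.

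Cnga1 and Cngb1 form the rod cyclic nucleotide-gated channel. Cnga1 had 467, 629 and 437 counts in DBA/2J against 376 and 1757 in Gpnmb+. Cngb1 had 370, 558 and 413 counts and 315 and 1475. Among rod genes these 2 subunits had the narrowest distances between the Gpnmb+ pools, 4.85-fold and 4.86-fold. The rod transcription factors moved with the genes of the outer segment. Nrl had 505, 721 and 550 counts in DBA/2J against 362 and 1941 in Gpnmb+. Nr2e3 had 196, 211 and 197 counts and 116 and 613, the lowest counts of the rod list and the same order of pools.

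The rod genes differed far less in their proportions to each other than in level. The log2 difference between the Gpnmb+ pools had a median of 2.43 over the 10 genes and an SD across genes of 0.16. Pde6a stood at 1.87, 1.76 and 1.77 times Pde6b in DBA/2J and at 2.04 and 1.94 times in Gpnmb+, as ratios of CPM within a pool. Cngb1 stood at 0.792, 0.887 and 0.945 times Cnga1 in DBA/2J and at 0.838 and 0.839 times in Gpnmb+. Sag stood at 0.610, 0.515 and 0.548 times Gnat1 in DBA/2J and at 0.467 and 0.602 times in Gpnmb+. Gngt1 varied more, from 0.125 to 0.187 times Gnat1. Gnat1 made up 38.5% to 41.0% of the summed rod CPM in every pool. DBA/2J pool 2 was the highest of the DBA/2J pools in 10 of 10 rod genes, with a median of 1.37-fold over pool 1 and 1.39-fold over pool 3.

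**Figure D1:**
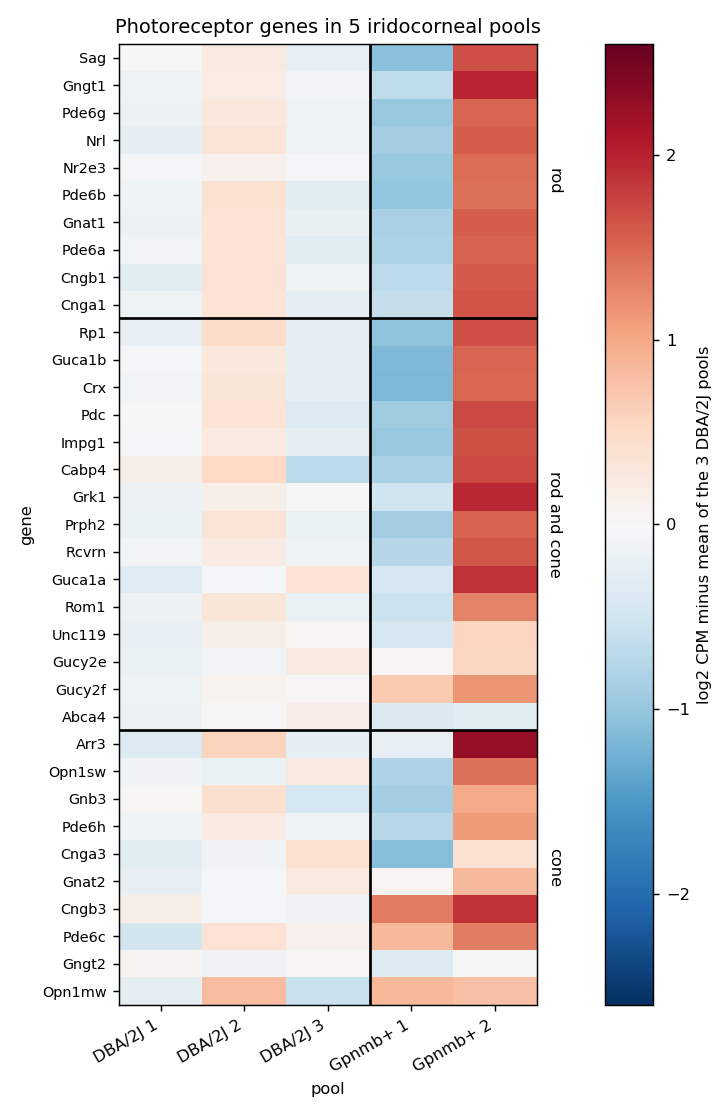
Level of each of the 35 photoreceptor genes (rows, grouped as rod, rod and cone, and cone genes) in each of the 5 pools (columns), as log2 CPM minus the mean of the 3 DBA/2J pools, with red above and blue below that mean. All 10 rod genes are red in Gpnmb+ pool 2 and blue in Gpnmb+ pool 1. Among the other genes, Cngb3, Gucy2f, Pde6c and Opn1mw are red in both Gpnmb+ pools and Abca4 is blue in both.

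Of the 15 genes shared by rods and cones, 12 behaved like the rod genes, with a level at least 2-fold higher in Gpnmb+ pool 2 than in pool 1. Over all 35 members 27 did so, against 4.7% of all tested genes, and 0 were at least 2-fold lower, against 5.12%. Each Gpnmb+ pool is 1 library, so this distance carries no test.

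Among the outer segment genes, Prph2, a rim protein of the disc membranes, had 1809, 2492 and 1829 counts in DBA/2J against 1243 and 6546 in Gpnmb+. Rom1, its partner at the disc rim, had 1093, 1460 and 1069 counts and 932 and 3230. Rp1, a microtubule-associated protein of the outer segment axoneme, had 1106, 1729 and 1091 counts and 712 and 4520. All 3 placed Gpnmb+ pool 2 highest and pool 1 lowest. Impg1, a proteoglycan of the matrix between photoreceptors, did the same, at 368, 435 and 320 counts in DBA/2J against 216 and 1301 in Gpnmb+.

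The genes that end or tune the light response kept that order too. Grk1, the kinase that phosphorylates activated visual pigment, had 575, 688 and 649 counts in DBA/2J against 509 and 2746 in Gpnmb+. Rcvrn, the calcium sensor that restrains Grk1, had 496, 587 and 477 counts and 358 and 1757. Pdc, which binds transducin beta and gamma subunits, had 1233, 1541 and 981 counts and 752 and 4505. Guca1b, an activator of guanylate cyclase at low calcium, ranged from 253 counts in Gpnmb+ pool 1 to 1556 in pool 2. Its relative Guca1a had only 3 to 6 counts in 4 pools and 23 in Gpnmb+ pool 2, too few for a ratio to be precise, and 731 of its 873 exon bases lie also in Gm50461 on the same strand, which had 0 counts, so the level of Guca1a cannot be read from them. Cabp4, a calcium-binding protein of the photoreceptor synapse, had 60, 75 and 33 counts in DBA/2J against 33 and 199 in Gpnmb+. Crx, which regulates genes of both photoreceptor types, had 497, 632 and 442 counts and 265 and 1628. Unc119, a carrier of lipid-modified proteins such as transducin, had 1468, 1830 and 1770 counts and 1423 and 2773, a distance of 2.02-fold between the Gpnmb+ pools.

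The 3 shared genes outside this pattern were Abca4, Gucy2e and Gucy2f. Abca4, an outer segment transporter of retinoids that is also made by retinal pigment epithelium, had 12389, 13319 and 15553 counts in DBA/2J against 12152 and 12242 in Gpnmb+. The Gpnmb+ pools lay within 1.05-fold of each other, both below every DBA/2J pool on the CPM scale. Gucy2e, a membrane guanylate cyclase of rods and cones, had 1224, 1269 and 1622 counts in DBA/2J against 1630 and 2195 in Gpnmb+. Gucy2f, the second such cyclase, had 257, 290 and 290 counts and 516 and 691. Both Gpnmb+ pools were above every DBA/2J pool for Gucy2f, whereas for Gucy2e the groups overlapped on the CPM scale.

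Cone genes did not move as a block. The log2 difference between the Gpnmb+ pools had a median of 1.14 over the 10 cone genes with an SD across genes of 0.89, against the SD of 0.16 in rod genes, and 5 of the 10 were at least 2-fold higher in Gpnmb+ pool 2. Those 5 were Arr3, Opn1sw, Gnb3, Pde6h and Cnga3. Arr3, the cone arrestin, had 11, 22 and 12 counts in DBA/2J against 14 and 85 in Gpnmb+, so Gpnmb+ pool 2 alone stood apart. Opn1sw, the short-wavelength cone opsin, had 147, 134 and 186 counts and 101 and 467. Gnb3, the transducin beta subunit of cones, had 277, 351 and 198 counts and 167 and 588. Pde6h, the inhibitory subunit of cone phosphodiesterase, had 36, 44 and 36 counts and 26 and 94. All 4 overlapped between genotypes. The counts of Cnga3, the alpha subunit of the cone channel, were 3 to 12 in all pools and do not fix its order.

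The other 5 cone genes differed by less than 2-fold between the Gpnmb+ pools. Cngb3, the beta subunit of the cone channel, had 37, 31 and 31 counts in DBA/2J against 100 and 140 in Gpnmb+. Both Gpnmb+ pools were above all DBA/2J pools. Pde6c, the catalytic subunit of cone phosphodiesterase, was also higher in both, with 2, 5 and 4 counts against 9 and 13. Gnat2, the alpha subunit of cone transducin, had 144, 157 and 202 counts in DBA/2J against 199 and 331 in Gpnmb+, and the groups overlapped on the CPM scale. Opn1mw, the medium-wavelength cone opsin, had 23, 48 and 18 counts and 59 and 53. Gngt2, the gamma subunit of cone transducin, had 610, 526 and 593 counts and 518 and 632, nearly level over the 5 pools. Within a pool the level of Opn1sw was 6.39, 2.79 and 10.3 times that of Opn1mw in DBA/2J and 1.71 and 8.81 times in Gpnmb+, on few counts of Opn1mw.

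Several of these counts are uncertain, because exons of the gene overlap a gene on the other strand and the strand used in counting is not given in the sources used here. In Opn1sw 397 exon bases are shared with Calu, which had 114278 counts over the 5 pools, and in Pde6h 136 bases are shared with Arhgdib, which had 74439. Gngt2 shares 871 bases with Abi3, which had 1336. Gnat1 shares 1536 bases with Gm57061, a gene of 84 counts. Arr3, Cngb3, Gnat2, Gnb3, Gucy2f and Pde6c share no exon base with another annotated gene.

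Summed over each class, the rod genes reached 328, 442 and 308 CPM in DBA/2J pools 1 to 3 against 192 and 1080 CPM in Gpnmb+ pools 1 and 2. The cone genes summed to 29.1, 30.9 and 28.9 CPM in DBA/2J and to 23.6 and 49.4 CPM in Gpnmb+. Gpnmb+ pool 2 exceeded pool 1 by 5.63-fold in the rod sum and by 2.09-fold in the cone sum. Rod genes took 0.0313% to 0.0432% of all counts in DBA/2J against 0.0195% and 0.109% in Gpnmb+. Both sums ranked Gpnmb+ pool 2 first and Gpnmb+ pool 1 last. Without Gngt2, which is also known from myeloid cells and made up a large share of the cone sum, the cone distance was 2.73-fold and still under that of the rod genes.

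The rod sum was 11.3, 14.3 and 10.6 times the cone sum in DBA/2J and 8.14 and 21.9 times in Gpnmb+. The ratio was thus highest in the pool with the most rod RNA and lowest in the pool with the least. Summing levels per kilobase of exon gave 9.61, 12.0 and 9.20 in DBA/2J and 7.00 and 17.6 in Gpnmb+, the same order. Without Gngt2 the ratios on CPM were 21.4, 23.7 and 19.7 in DBA/2J and 14.4 and 29.6 in Gpnmb+. Gnat1, taken alone against its cone counterpart Gnat2, gave 39.1, 49.0 and 27.0 in DBA/2J and 20.1 and 61.4 in Gpnmb+. In each version the genotypes overlapped, since the Gpnmb+ pools had both the highest and the lowest value.

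**Figure D2:**
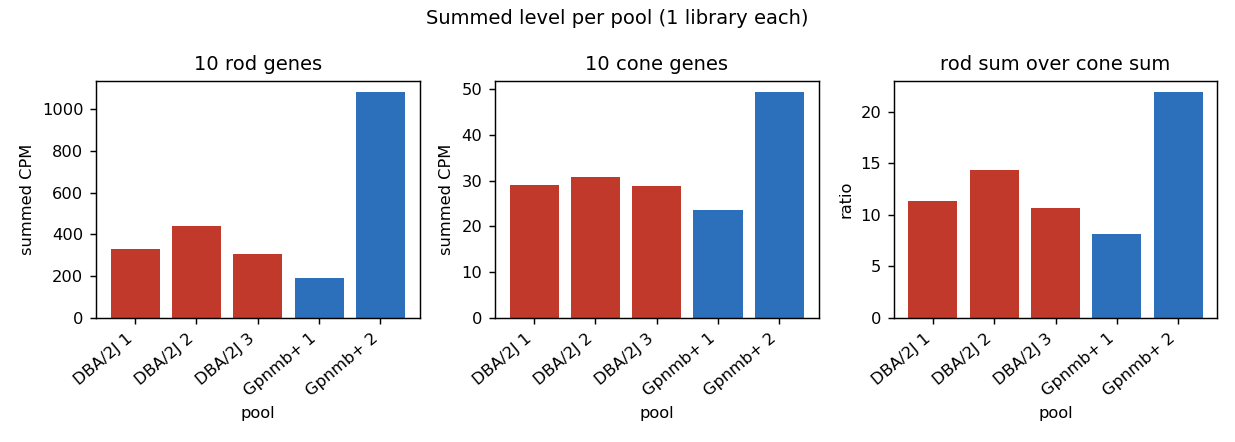
Summed level in CPM of the 10 rod genes (left) and the 10 cone genes (middle) and the ratio of the 2 sums (right), 1 bar per pool and 1 library per bar, with DBA/2J in red and Gpnmb+ in blue. In all 3 panels the 2 Gpnmb+ pools are the lowest and the highest, at 192 and 1080 CPM for rod genes and at 23.6 and 49.4 CPM for cone genes.

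The order of levels within the list was read per length. The length was that of all annotated exons of a gene together, which can exceed the transcript made, so the order is approximate. Gnat1 had the highest level, with a mean over the 5 pools of 60.9 CPM per kilobase of exon. Abca4 followed at 23.8, Rom1 at 22.0, Prph2 at 19.9 and Rcvrn at 14.9 CPM per kilobase. From Abca4 to Rcvrn neighbors did not differ beyond their spread, since Rom1 alone ran from 12.1 to 43.5 CPM per kilobase over the pools and Abca4 from 19.9 to 29.0. Cone genes filled most of the lower end, where Pde6h stood at 0.13, Pde6c at 0.05 and Cnga3 at 0.03 CPM per kilobase. Gngt2 at 3.14 and Gnb3 at 2.07 CPM per kilobase were the cone genes of highest level, and the cone opsins stood at 1.73 for Opn1sw and 0.55 for Opn1mw.

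The genotype comparison was made with edgeR's quasi-likelihood test over 19713 genes, calling a gene at a Benjamini-Hochberg adjusted p no higher than 0.05 with a change of at least 1.5-fold. It called 0 of the 35 members, against 0.796% of all tested genes, of which 0.502% were higher and 0.294% lower in DBA/2J. At an unadjusted p of at most 0.05 there were 3 members, Abca4, Gucy2f and Cngb3, against 15.9% of all tested genes. DESeq2 called 2 members, Cngb3 and Gucy2f, against 4.7% of all tested genes, and limma-voom called 0, against 0.964%. The estimated log2 fold change was below 0, meaning lower in DBA/2J, in 32 of 35 members, with a median of -0.77 where all genes had -0.02. This majority rested on 1 library, as the plot with each Gpnmb+ pool left out shows.

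With Gpnmb+ pool 1 left out, 7 members were called lower in DBA/2J by edgeR, against 1.1% of all genes in that fit, and the median of the 35 log2 fold changes was -1.50. The 7 were Gngt1, Pde6g, Sag, Nr2e3, Rcvrn, Grk1 and Impg1. With Gpnmb+ pool 2 left out, 0 members were called, 29 of 35 were estimated higher in DBA/2J and the median was 0.78. In these fits a single Gpnmb+ library remained and was assumed to vary like the DBA/2J pools. The rod median was -0.79 with all pools, -1.54 without Gpnmb+ pool 1 and 0.89 without Gpnmb+ pool 2. For Gnat1 the estimate was -0.79 with all pools, with a standard error of 0.62 (adjusted p = 0.583 by edgeR), -1.53 without Gpnmb+ pool 1 and 0.86 without Gpnmb+ pool 2. No direction between genotypes could therefore be given for the rod genes.

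**Figure D3:**
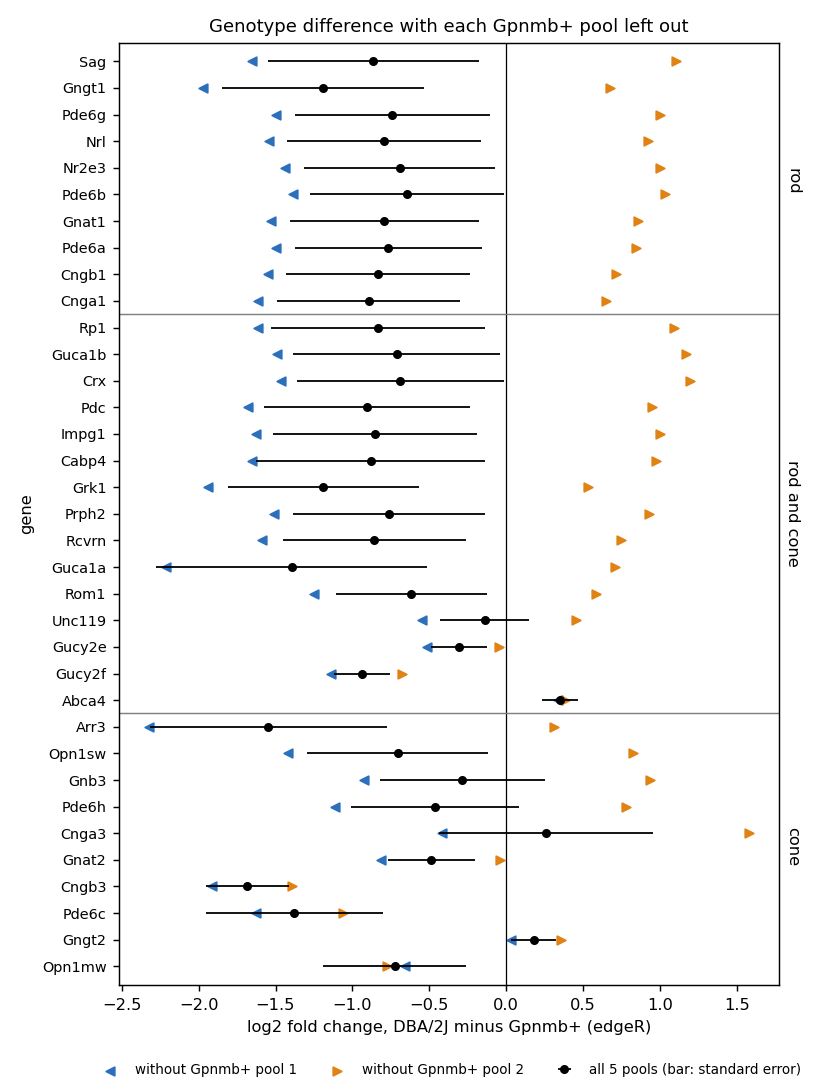
Log2 fold change of DBA/2J over Gpnmb+ from edgeR for each of the 35 photoreceptor genes with all 5 pools (black points, bars are standard errors), without Gpnmb+ pool 1 (blue triangles) and without Gpnmb+ pool 2 (orange triangles). All 10 rod genes lie left of 0 with all pools and right of 0 without Gpnmb+ pool 2. Gucy2f, Cngb3, Pde6c, Opn1mw, Gnat2 and Gucy2e stay left of 0 and Abca4 and Gngt2 right of 0.

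A smaller set of members had no overlap between the genotypes. Both genotypes were separate, with every DBA/2J pool below both Gpnmb+ pools, in Cngb3, Gucy2f and Pde6c, and with every DBA/2J pool above in Abca4. Of all tested genes 17.2% were separate in the first direction and 17.3% in the second, so 3 and 1 of 35 members were not many. Among the 3, Pde6c reached the count minimum only in a Gpnmb+ pool, so the first direction was favoured for it. Cngb3 averaged 0.75 ± 0.07 CPM (SD, n = 3) in DBA/2J and 2.42 ± 0.63 CPM (SD, n = 2) in Gpnmb+. edgeR estimated a log2 difference of -1.68 with a standard error of 0.27 (adjusted p = 0.0593). DESeq2 gave an adjusted p of 0.000362 for the same counts. Leaving out either Gpnmb+ pool left its estimate between -1.92 and -1.39.

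Gucy2f averaged 6.35 ± 0.51 CPM (SD, n = 3) in DBA/2J and 12.2 ± 2.80 CPM (SD, n = 2) in Gpnmb+. The log2 difference was -0.94 with a standard error of 0.18, at an adjusted p of 0.0867 by edgeR and 0.000755 by DESeq2. Gucy2f lies on the X chromosome, as do Arr3 and Opn1mw. Xist was likewise higher in both Gpnmb+ pools, and the part of sex in the Gucy2f difference was not tested. Pde6c had a log2 fold change of -1.38 (adjusted p = 0.321 from edgeR) on at most 13 counts per pool. Abca4 had 0.35 (standard error 0.12, adjusted p = 0.238 from edgeR), the only member that was separate and higher in DBA/2J.

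For this comparison 40 further genes of photoreceptors were listed and tested in the same fit. edgeR called 0 of them, against 0.796% of all tested genes. At an unadjusted p of at most 0.05 there were 2, against 15.9% of all tested genes. DESeq2 called 1, Prom1, against 4.7%. The estimate was below 0 in 37 of 40, with a median log2 fold change of -0.74. Of the 40, 32 were at least 2-fold higher in Gpnmb+ pool 2 than in pool 1, against 4.7% of all tested genes. Gpnmb+ pool 2 was the highest pool in 38, against 26.9% of all tested genes. Rbp3, a retinoid carrier of the matrix between photoreceptors and pigment epithelium, had 3809, 4172 and 3281 counts in DBA/2J against 2144 and 8667 in Gpnmb+. It placed the pools as the rod genes did. Prom1, a protein of outer segment membranes that other epithelia also make, had 6241, 8609 and 5816 counts in DBA/2J against 14238 and 16762 in Gpnmb+, so that both Gpnmb+ pools were high. Otx2, a transcription factor shared with pigmented epithelium, and Gnb1, the rod transducin beta subunit found in many cell types, had less than 2-fold between the Gpnmb+ pools.

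Genes of other cell types of the eye were set beside the members in 8 lists. Retinal bipolar genes, which mark the neurons that receive photoreceptor input, were at least 2-fold higher in Gpnmb+ pool 2 than in pool 1 in 8 of 10, with a median log2 difference of 1.94. Horizontal and amacrine genes were so in 6 of 7 tested, with a median of 2.01. Of these 6, Lhx1 reached 10 counts only in Gpnmb+ pool 2, so the direction was favoured for it. Most genes of both lists thus had the order of the Gpnmb+ pools seen in rod genes, although the summed levels, which rest on a few genes, did not. They did not share the distance of Gpnmb+ pool 2 from DBA/2J pool 2, which had a log2 median of 1.24 in rod genes, -0.03 in bipolar genes and 0.05 in horizontal and amacrine genes. Within DBA/2J, pool 2 was the highest pool in 8 of 10 bipolar and 7 of 8 horizontal and amacrine genes, as in 10 of 10 rod genes. Its median distance over pool 3 was 1.92-fold in bipolar and 2.14-fold in horizontal and amacrine genes, against 1.39-fold in rod genes.

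The summed bipolar level was 494 to 616 CPM in DBA/2J, and 552 and 462 CPM in Gpnmb+ pools 1 and 2, most of it from Trpm1, which is also made by pigment cells. The horizontal and amacrine sum was 162 to 188 CPM in DBA/2J, and 114 and 81.8 CPM in Gpnmb+ pools 1 and 2, most of it from Slc6a9, and Onecut1 had no more than 2 counts in any pool. Ganglion cell genes summed to 56.4 to 58.4 CPM in DBA/2J and 53.8 to 58.2 CPM in Gpnmb+, most of it from Rbpms and Sncg. Of the 7, 4 were tested, and the defining factors Pou4f2, Pou4f3 and Isl2 had no more than 5 counts. At least 2-fold higher in Gpnmb+ pool 2 than in pool 1 were 2 of the 4, among them Slc17a6 with 16 and 65 counts in pools 1 and 2. The other 2, Rbpms and Sncg, were lower in pool 2. Müller glia genes summed to 2264 to 2323 CPM in DBA/2J and 1268 to 1543 CPM in Gpnmb+, most of it from Glul. Their median log2 difference between the Gpnmb+ pools was -0.08. Of the 6, 3 were higher and 3 lower in Gpnmb+ pool 2 than in pool 1, and 0 were at least 2-fold higher. As a list they therefore did not follow the rod genes.

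Retinal pigment epithelium genes, such as Rgr, Rpe65 and Ttr, summed to 166 to 313 CPM in DBA/2J and to 412 and 982 CPM in Gpnmb+ pools 1 and 2. Gpnmb+ pool 2 was the highest pool in 6 of 7, as in the rod genes, but Gpnmb+ pool 1 was the lowest in 1 of 7. Nonpigmented ciliary epithelium genes ran the other way, at 967 to 1244 CPM in DBA/2J and 380 and 216 CPM in Gpnmb+, and Col9a1, Col9a2 and Six6 of that list were called higher in DBA/2J by edgeR. Lens genes summed to 15.1 to 21.9 CPM over all pools, with Lim2 at 0 counts and Mip at no more than 4. Skeletal muscle genes summed to 205 to 542 CPM in DBA/2J and to 218 and 125 CPM in Gpnmb+. The part of neighboring tissue in the photoreceptor differences was not tested.

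**Figure D4:**
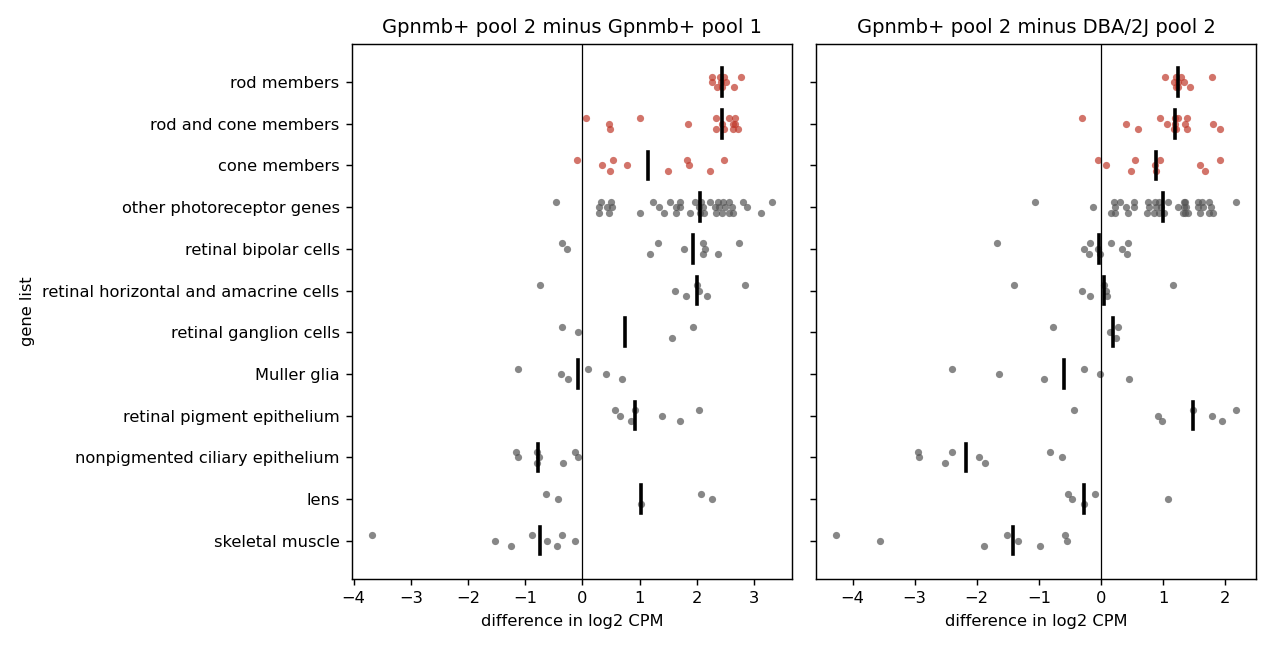
Difference in log2 CPM between Gpnmb+ pools 2 and 1 (left) and between Gpnmb+ pool 2 and DBA/2J pool 2 (right) for each tested gene of the photoreceptor members (red) and of 9 further lists (gray), with a black bar at each list's median and a vertical line at 0. Rod members cluster tightly at a median of 2.43 in the left panel and 1.24 in the right, while bipolar and amacrine genes are near 2 in the left panel and near 0 in the right.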

How the data were processed

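RNA from 5 pools was sequenced as paired-end poly(A) libraries. Per the labels and the study's methods, fastp trimming was followed by STAR alignment to GRCm39, and the deposited values are raw counts, the reads at a single genomic location summed for each gene by the authors and not normalized. All count columns matched a sample, and no pair of libraries held identical values. Symbols, positions and exon lengths came from GENCODE mouse annotation on GRCm39, which held 56323 of 56941 identifiers.

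Of all genes, 19713 reached 10 counts in 1 pool or more and were tested. Libraries were scaled by TMM, and genotypes were compared with edgeR 4.0.16 (quasi-likelihood test, no covariate) in R 4.3.3, with DESeq2 1.42.0 and limma 3.58.1 as alternatives. Log2 CPM used a prior count of 2. CPM were scaled by TMM. Tables and plots were made in Python 3.11.15. Other alternatives were DESeq2's size factors, edgeR's filterByExpr, no count minimum, unadjusted p-values, no fold minimum, the pool number as a block and each pool left out. The test was checked on simulated data. P-values weigh the genotype difference against the variation between pools, which all 3 tools estimate in part from other genes. Each pool mixed several mice, so variation between single mice was not seen.

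The members and lists were chosen with earlier results of these data known. Every member was accounted for. From the 40 further photoreceptor genes those called and the 5 of highest mean CPM were to be named, from the other lists up to 3 of highest CPM. List genes named for low counts, and the tissue check genes, were picked once their values were known. Results for some genes are not given here.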

Additional observations from a re-analysis of the deposited data

How the results depend on the processing

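The counts of called genes depended on the tool and on single pools. edgeR called 157 genes and 0 of the 35 members. DESeq2 called 927 genes, 2 members and 1 of the 40 further photoreceptor genes. Without the count minimum 360 genes and 1 member, Cngb3, were called, and with unadjusted p-values 1710 genes, 2 members and 2 further genes. Leaving out 1 pool gave 1 to 217 genes, 0 to 7 members and 0 to 7 further genes, and each upper end came without Gpnmb+ pool 1. Without DBA/2J pool 1, 2 or 3 edgeR called 6, 1 or 17 genes, and without Gpnmb+ pool 2 it called 2. With the pool number as a replicate block edgeR called 220 genes, 0 members and 1 further gene, Prom1. No label ties same-numbered pools, and the genotypes share only 2 numbers, so these were not taken as pairs. Same-numbered deviations from the group means correlated at 0.28 and 0.25. With 2 Gpnmb+ pools their deviations mirror each other, so these 2 values are not independent. Pool 2 was above pool 1 in both genotypes in 10 of 10 rod genes, which moved together and so are not separate observations of pool order. The block moved the log2 fold change of Gnat1 from -0.79 to -0.27. The cause of these shifts was not tested. Gpnmb+ pool 2 over pool 1 in the summed shared genes was 2.27 in CPM, 3.95 without Abca4 (an alternative chosen after seeing the data) and 4.40 from the difference of the pools' median log2 levels. The log2 fold change changed sign with 1 pool left out in 27 members, with these ranges over the pools left out: Gnat1 -1.53 to 0.86, Gngt1 -1.97 to 0.68, Gnb3 -0.92 to 0.93, Pde6a -1.50 to 0.84, Pde6b -1.39 to 1.03, Pde6g -1.50 to 1.00, Pde6h -1.11 to 0.78, Sag -1.65 to 1.10, Arr3 -2.32 to 0.31, Rcvrn -1.59 to 0.75, Guca1a -2.21 to 0.71, Guca1b -1.49 to 1.17, Cnga1 -1.61 to 0.65, Cngb1 -1.55 to 0.71, Cnga3 -0.41 to 1.58, Opn1sw -1.42 to 0.83, Prph2 -1.51 to 0.93, Rom1 -1.25 to 0.58, Rp1 -1.62 to 1.09, Nrl -1.54 to 0.92, Nr2e3 -1.44 to 1.00, Crx -1.47 to 1.19, Pdc -1.68 to 0.94, Grk1 -1.94 to 0.53, Impg1 -1.63 to 1.00, Unc119 -0.55 to 0.46 and Cabp4 -1.66 to 0.97. For every one but Cnga3 this came without Gpnmb+ pool 2, and for Cnga3, on at most 12 counts, it came without Gpnmb+ pool 1 or DBA/2J pool 3. Under the replicate block Gnb3 changed sign to 0.16. The other 8 members kept their sign in every fit.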
